A study of Mus musculus with 8 samples.

Results

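A set of 7 marker genes of skin immune cells was examined in mouse skin that lacked corneodesmosin in the epidermis. They were Cd74, Cd14, Aif1, Lst1, Trem1, Tcrg-V5 and Mcpt4, found by gene symbol among the 5080 genes with a symbol in the authors' deposited table, which holds the 5460 of 33793 probe sets that differed between the genotypes at a Benjamini-Hochberg adjusted p under 0.05 and by more than 0.5 on the log2 scale. All 7 were found, each with 1 probe set in that table. Because the table was selected on the comparison of knockout with control skin, the differences of the 7 genes between the genotypes are given as a description, with no test.

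Dorsal skin was taken at the E18.5 embryonic stage by caesarean delivery, tape-stripped, and cultured for 4 h before total RNA was extracted from the whole skin. The KO group held 4 embryos with a KRT14-Cre transgene and both Cdsn alleles floxed (KRT14-Cre(tg/0)/Cdsnfl/fl), and the WT group held 4 embryos with the same transgene and unfloxed Cdsn (KRT14-Cre(tg/0)/Cdsnwt/wt). Both groups were labelled C57B/6J, and both therefore carried Cre, were stripped and were cultured. Cre was driven by the keratin 14 promoter, which is active in basal keratinocytes, so the deletion was aimed at keratinocytes and not at the leukocytes whose markers are described here. Each embryo gave 1 Affymetrix Gene Mouse 2.0 ST array, and values are log2 intensities per probe set, a relative scale on which 1 unit is a doubling. The labels give neither litter nor sex, and the number of arrays limits the precision.

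Fetal skin holds its own leukocytes before birth. Macrophages and Langerhans cell precursors seed it early, T cells with a gamma-delta receptor settle in the epidermis, and mast cells mature in the dermis. Macrophages and Langerhans cells take up material and show pieces of it to T cells on class II molecules, whereas mast cells store proteases in granules that they release when activated. In RNA from whole skin, more cells of a type and more RNA per cell cannot be told apart. Nor can RNA from other cells of the skin, keratinocytes included, whatever cell type a gene is listed under. This holds for every gene below.

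The targeted gene was read first as a check of the labels. Cdsn, on chromosome 17, was at 8.09, 8.51, 8.0 and 8.91 in the KO skins, against 11.76, 11.82, 11.69 and 12.10 in the WT skins. All 4 KO embryos were far below all 4 WT embryos (limma difference −3.46 ± 0.20, SE; Benjamini-Hochberg adjusted p = 0.000125). The floxed part of Cdsn is not described in the labels. Array medians were slightly higher in the KO group (4.81 to 4.88) than in the WT group (4.70 to 4.80), so the median difference of all probe sets was 0.09, and the share of higher calls depended on the scaling. As deposited, 71.4% of the 7194 probe sets called by limma were higher in KO skin. After each array was centred on its median, 49.1% of 6040 were.

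All 7 marker genes were higher in KO skin, by 0.54 to 1.21 on the log2 scale with a median of 1.01. In each of them the 4 KO values lay above the 4 WT values. Over the whole array 11.8% of probe sets were higher in KO skin at the authors' criteria, and 17.6% had all KO values above all WT values. The members were chosen through these criteria, so nothing is read from their count. The plot of the 7 genes by embryo shows the values described next.

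**Figure D1:**
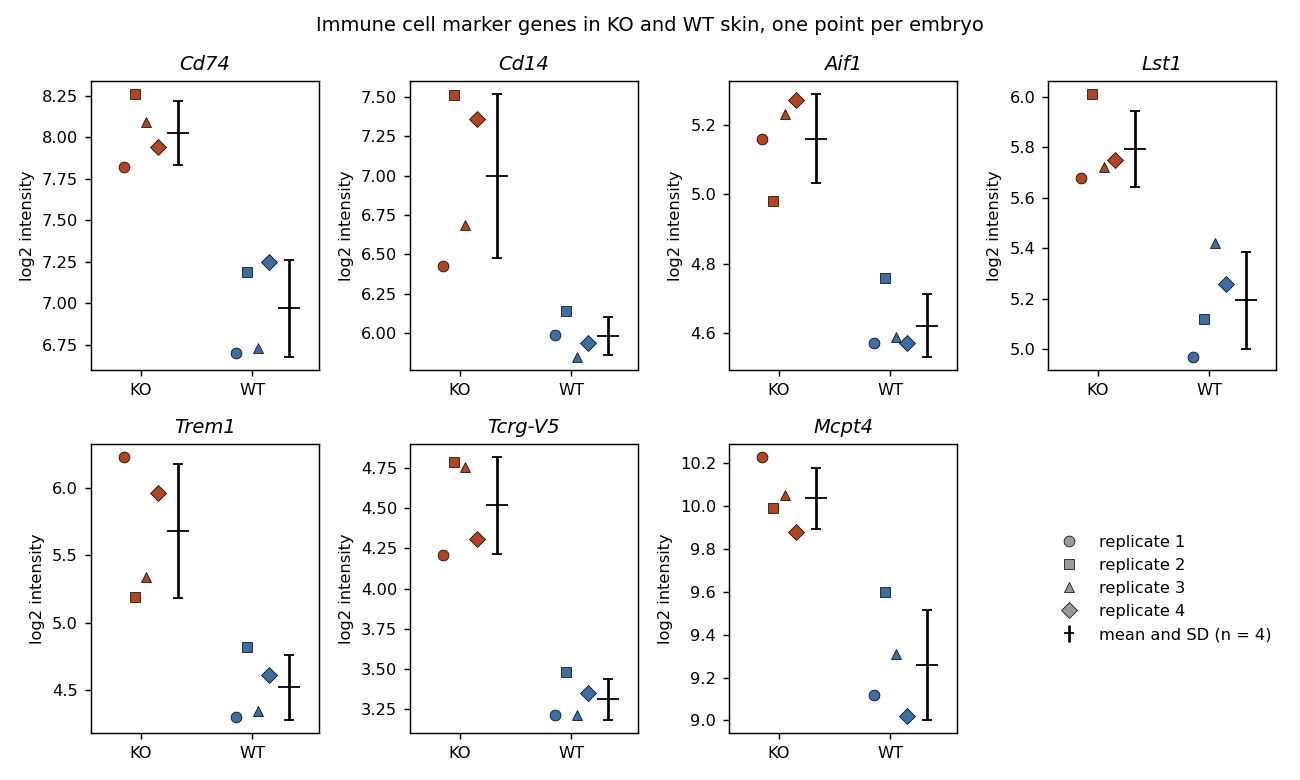
Log2 intensity (y axis) of the 7 marker genes in the 4 KO and the 4 WT embryos, with 1 symbol shape per replicate number and the mean ± SD beside each group; the scales differ between panels. Every KO point lies above every WT point of the same gene, with the widest gap for Tcrg-V5 (0.74) and the narrowest for Aif1 (0.23).

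Among the genes of antigen presentation, Cd74 encodes the invariant chain, which guards the peptide groove of class II molecules until they reach the compartment where they are loaded. Its log2 intensity was 7.82, 8.26, 8.09 and 7.94 in KO skin, against 6.70, 7.19, 6.73 and 7.25 in WT skin. The KO mean was 8.02 ± 0.19 and the WT mean 6.97 ± 0.29 (SD, n = 4 each), a difference of 1.06 ± 0.16 (SE) or 2.08-fold. The WT embryos fell into a lower pair, replicates 1 and 3, and a higher pair, replicates 2 and 4, and the lowest KO value still stood 0.56 above the highest WT value.

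The sensors of the myeloid cells came next. Cd14 encodes the surface protein that hands bacterial lipopolysaccharide to the receptor Tlr4, and Trem1 a receptor of neutrophils and monocytes that signals through the adaptor Tyrobp and strengthens the response to such sensors. Cd14 was at 6.43, 7.51, 6.69 and 7.36 in KO skin, against 5.99, 6.14, 5.85 and 5.94 in WT skin. The KO embryos were thus spread over 1.08 log2 units and the WT embryos over 0.29, with KO replicates 2 and 4 high and KO replicates 1 and 3 closer to the WT level. The difference was 1.01 ± 0.22 (SE), from means of 7.0 ± 0.52 in KO and 5.98 ± 0.12 in WT skin (SD, n = 4 each).

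Trem1 was at 6.23, 5.19, 5.34 and 5.96 in KO skin, against 4.30, 4.82, 4.34 and 4.61 in WT skin. It too was uneven among the KO embryos, over 1.04 log2 units, but here replicates 1 and 4 were high and replicates 2 and 3 low. The difference was 1.16 ± 0.23 (SE), from 5.68 ± 0.50 in KO and 4.52 ± 0.24 in WT skin (SD, n = 4 each), or 2.24-fold.

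Aif1 and Lst1 had the smallest differences. Aif1 encodes Iba1, a calcium-binding protein of macrophages that bundles actin, and Lst1 a small protein of leukocytes. Aif1 was at 5.16, 4.98, 5.23 and 5.27 in KO skin, against 4.57, 4.76, 4.59 and 4.57 in WT skin. Both groups were tight, apart from WT replicate 2, which stood above the other WT embryos. Lst1 was at 5.68, 6.01, 5.72 and 5.75 in KO skin, against 4.97, 5.12, 5.42 and 5.26 in WT skin. The differences were 0.54 ± 0.11 (SE) for Aif1 and 0.60 ± 0.13 for Lst1, which places Aif1 just inside the authors' minimum of 0.5. Genes just outside that minimum carry no symbol in the files, so none can be set beside it. After median centring the differences were 0.43 for Aif1 and 0.49 for Lst1, both under that minimum, while the other 5 genes stayed above it at 0.67 to 1.10.

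Tcrg-V5, on chromosome 13, encodes the variable segment of the gamma chain that the T cells of mouse epidermis, the dendritic epidermal T cells, carry in their receptor. It had the largest difference of the 7 genes. Its log2 intensity was 4.21, 4.79, 4.76 and 4.31 in KO skin, against 3.21, 3.48, 3.21 and 3.35 in WT skin, with means of 4.52 ± 0.30 in KO and 3.31 ± 0.13 in WT skin (SD, n = 4 each). The difference was 1.21 ± 0.16 (SE), or 2.31-fold, and 99.1% of all probe sets had a smaller one. The KO embryos formed a higher pair, replicates 2 and 3, and a lower pair, replicates 1 and 4, and even the lower pair stood well clear of the WT range. The signal was low: 44.9% of all probe sets had a lower KO mean and 25.9% a lower WT mean. No detection value was used here, so whether the WT skins carried signal above background is unknown.

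Mcpt4, on chromosome 14, encodes a chymase of the granules of connective tissue mast cells. It was at 10.23, 9.99, 10.05 and 9.88 in KO skin, against 9.12, 9.60, 9.31 and 9.02 in WT skin. The KO embryos lay closer together than the WT embryos, and the lowest KO value exceeded the highest WT value, that of replicate 2, by 0.29. The means were 10.04 ± 0.14 in KO and 9.26 ± 0.26 in WT skin (SD, n = 4 each), a difference of 0.78 ± 0.15 (SE) or 1.71-fold. Its probe set has 11 probes, against 17 to 28 for the other 6 genes.

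The stretch of 250 bases before the start of Trem1, Aif1 and Mcpt4 is shown because the sequence table used here holds these 3 of the 7 genes. RefSeq (GRCm38.p6) gave the sequences, and capitals mark matches to GAGGAA, the purine-rich core that PU.1, a transcription factor of myeloid cells, is known to bind. Both strands were searched.
Trem1, chr17:48232489-48232738, plus strand: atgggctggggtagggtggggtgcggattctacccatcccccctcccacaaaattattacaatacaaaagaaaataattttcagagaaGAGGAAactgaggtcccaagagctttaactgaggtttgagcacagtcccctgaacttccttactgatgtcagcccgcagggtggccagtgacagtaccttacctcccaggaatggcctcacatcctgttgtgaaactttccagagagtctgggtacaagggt
Aif1, chr17:35176053-35176302, minus strand: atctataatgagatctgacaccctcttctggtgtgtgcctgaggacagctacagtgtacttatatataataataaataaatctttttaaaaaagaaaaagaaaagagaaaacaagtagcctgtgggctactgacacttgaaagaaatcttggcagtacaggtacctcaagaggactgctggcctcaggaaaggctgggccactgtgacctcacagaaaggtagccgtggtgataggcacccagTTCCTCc
Mcpt4, chr14:56062311-56062560, minus strand: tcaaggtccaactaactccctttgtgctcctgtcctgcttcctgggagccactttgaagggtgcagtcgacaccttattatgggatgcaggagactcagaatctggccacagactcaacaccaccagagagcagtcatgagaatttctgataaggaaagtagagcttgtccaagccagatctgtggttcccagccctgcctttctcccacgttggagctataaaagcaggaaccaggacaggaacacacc
Trem1 had 1 match, starting 162 bases before the gene's start, and Aif1 had 1 on the opposite strand, 7 bases before it. Mcpt4 had 0. Of 32851 such windows, 23.3% held at least 1 match. The AP-1 site TGANTCA, which 6.75% of windows hold, was found in none of the 3 windows and does not overlap the first motif. AGATAA, a form of the GATA site that 9.99% of windows hold, was also absent from the 3 windows. Other forms of the GATA site were not searched, so their absence is not shown. The printed Mcpt4 window does hold the letters TGATAA, and the Aif1 window TGATAG. How many of all windows hold these was not counted. A match is only a run of letters, and binding was not measured.

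In all 7 genes each of the 3 rescalings gave a smaller difference than the deposited values, as the plot of the 4 scalings shows. Tcrg-V5 was at 1.07 to 1.10 under the other 3 scalings and Trem1 at 1.05 to 1.06. Leaving out single arrays gave 0.84 to 1.20 for Cd14 and 0.98 to 1.33 for Trem1. For Cd14 the lowest value came without KO replicate 2 and the highest without KO replicate 1, and for Trem1 it was the other way round.

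**Figure D2:**
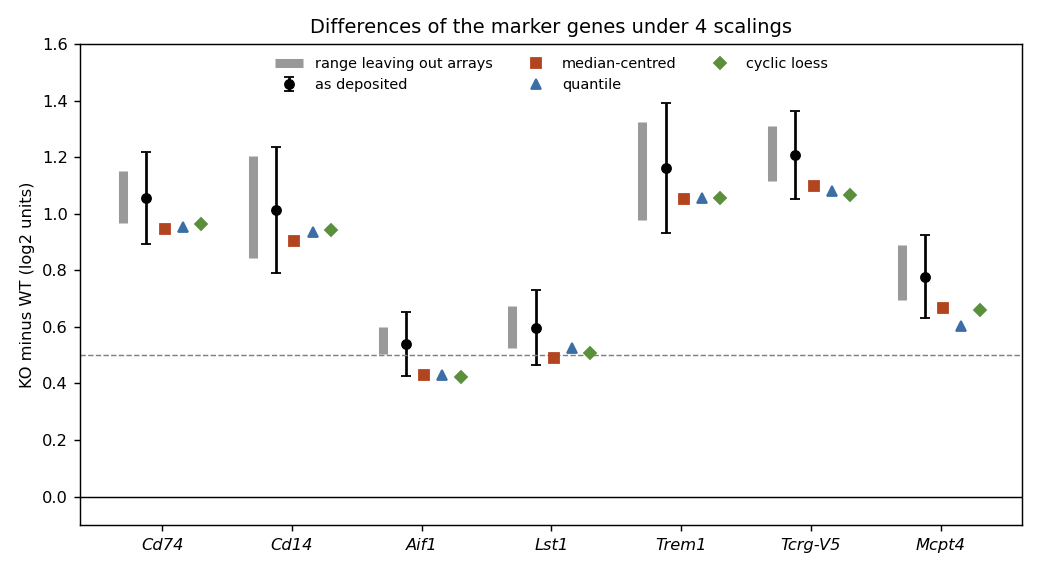
Difference KO minus WT in log2 units (y axis) for the 7 marker genes (x axis) as deposited (black, with SE) and after median centring, quantile normalization and cyclic loess; grey bars give the range when single arrays are left out and the dashed line is the authors' minimum of 0.5. All values stay above 0, and those of Aif1 after the 3 rescalings lie below the dashed line.

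Whether the 7 genes went up and down together from embryo to embryo was read from deviations from each genotype's own mean, which do not use the difference between the genotypes. They did not form 1 block. Over the 8 arrays, 10 of the 21 pairs had a Pearson r above 0 and 11 below, with a median of −0.01. These are descriptions over 8 arrays that share their scaling. Cd74 and Tcrg-V5 were the most alike pair (r = 0.75, and 0.94 among the KO and 0.87 among the WT embryos), while Trem1 and Tcrg-V5 were the most opposed (r = −0.65).

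The opposed pairs were so in the KO skins. There Trem1 and Tcrg-V5 had r = −0.99 and Trem1 and Cd74 r = −0.97, against 1.0 and 0.90 for the same pairs in the WT skins, each over 4 embryos. KO replicate 1 held the highest Trem1 and Mcpt4 values and the lowest Cd74, Cd14, Lst1 and Tcrg-V5 values of its group. KO replicate 2 was the reverse for 5 of these 6 genes, with the highest Cd74, Cd14, Lst1 and Tcrg-V5 and the lowest Trem1 and Aif1. In WT skin, replicate 2 was highest for 5 of the 7 genes, namely Cd14, Aif1, Trem1, Tcrg-V5 and Mcpt4, and replicate 1 was lowest for 4. With 4 embryos in a group these orders rest on single animals, and no test was made.

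**Figure D3:**
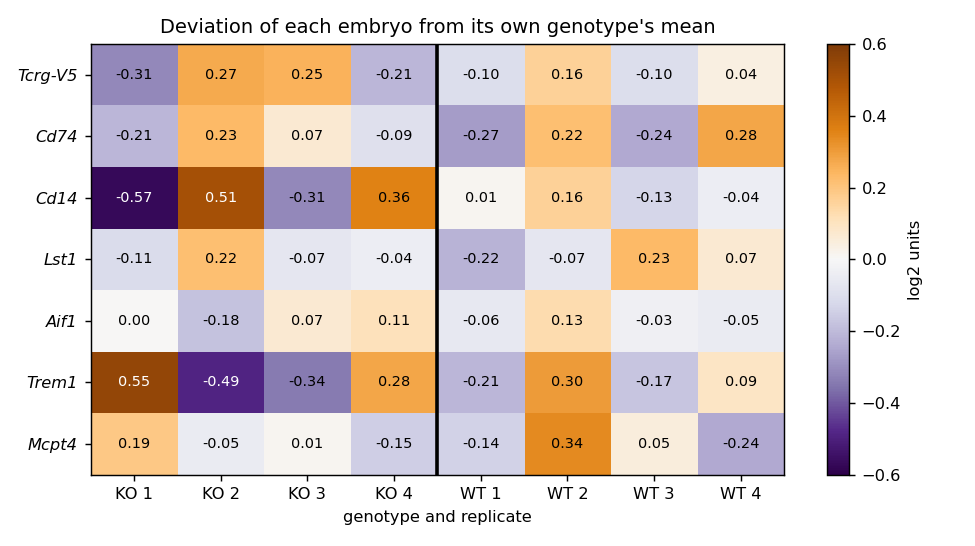
Deviation of each embryo (columns, KO left of the line and WT right of it) from the mean of its own genotype, in log2 units, for the 7 marker genes (rows). KO replicates 1 and 2 carry opposite signs for Tcrg-V5, Cd74, Cd14 and Lst1 on the one hand and Trem1 on the other, and WT replicate 2 is above its group's mean in 6 of 7 genes.

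For each marker gene the genes with the most similar deviations were sought among 3183 genes with a symbol, leaving out predicted and RNA genes. The closest was Olfr287 for Cd74 (r = 0.98), Cd200 for Cd14 (0.99), Rbp3 for Aif1 (0.99), Vmn1r206 for Lst1 (0.97), Lce1h for Trem1 (0.96), Gsc2 for Tcrg-V5 (0.97) and Arrdc3 for Mcpt4 (0.93). Second to Olfr287 for Cd74 was Fcgr2b, an inhibitory antibody receptor of myeloid and B cells (0.96). None of the 7 closest genes is another of the 7 markers. With 8 arrays and this many genes, values of this size describe these embryos only.

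Further genes of the same cells were counted in 11 lists of immune genes. Only genes with a symbol in the authors' deposited table can be named, so a listed gene that is missing there did not meet the criteria, was not measured, or lacks a symbol. Without the 7 markers, 64 of 216 listed genes were named (29.6%), 58 of them higher and 6 lower in KO skin, against 16.2% of all probe sets and 15.2% of annotated protein-coding genes. The 58 higher genes are 26.9% of the list, against 11.8% of probe sets, and the 6 lower ones stand against 4.4% of probe sets. The lists were chosen with earlier results of these data known, so these shares are a description and not an independent test. The median difference of the 58 higher genes was 0.76, against 0.70 among all named genes that rose. Limma at an adjusted p under 0.05, which 21.3% of all probe sets passed (15.2% higher and 6.08% lower), is part of the criteria that let a gene be named, so nothing is read from the 64 passing it as deposited. After median centring 55 of them passed, and over the whole array 6040 of 33793 probe sets did. The 64 had already passed on the same arrays, so nothing is read from this or from the centred counts per list. The 7 markers are left out of the list counts that follow. Each count is to be read against the 16.2% of all probe sets that met the criteria, 11.8% higher and 4.4% lower. Several genes described below had low signal, among them Clec7a, H2-DMb2, Cd40, Cd207, Xcr1, Itgae, Cd8b1, Cd28, S100a8, S100a9, Clec4e and Ncr1. Low too were Skint5 and Skint11, which rose, and Clec9a, Scart2, Trem3, Skint8 and H60b, which fell. Their mean over the 8 arrays was below the median of all probe sets. For them, as for Tcrg-V5, whether the WT skins carried signal above background is unknown. For those that fell, the same holds for the KO skins.

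Besides Cd14 and Aif1, 13 of 25 macrophage and monocyte genes were named, all 13 higher, with a median difference of 0.68, and 11 passed after centring. Clec7a, the receptor Dectin-1 for fungal glucans, rose most, by 1.84 ± 0.14 (SE; limma adjusted p = 0.000191). It was at 5.14, 5.08, 4.54 and 4.96 in KO skin, against 3.12, 3.16, 3.0 and 3.08 in WT skin, a gap far wider than the spread of either group. Pf4, a chemokine of platelets and macrophages, rose by 0.90 ± 0.13 and C1qb, a chain of the complement starter C1q, by 0.87 ± 0.13. The macrophage surface receptor Adgre1, listed in the files as Emr1 and chosen after its value was seen, rose by 0.65 ± 0.13. Csf1r, Mrc1, Cd163 and Cx3cr1 were not named.

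Genes of class II presentation were higher alongside Cd74. Besides Cd74 itself, 8 of 13 listed genes were named and all 8 were higher, with a median difference of 0.90, and 6 passed after centring. The costimulators Cd40 (1.38 ± 0.21, SE) and Cd80 (1.17 ± 0.17) and the peptide-loading gene H2-DMb2 (1.19 ± 0.22) rose most. Among the class II chains themselves, chosen after their values were seen, H2-Eb1 rose by 0.99 ± 0.14, H2-Ab1 by 0.82 ± 0.17 and H2-Aa by 0.62 ± 0.18, the last with an adjusted p of 0.0626 in limma after centring. H2-Eb1 was at 6.24, 6.74, 6.53 and 6.62 in KO skin, against 5.41, 5.70, 5.40 and 5.66 in WT skin. As for Cd74, KO replicate 1 was the lowest of the KO embryos and replicate 2 the highest, and WT replicates 2 and 4 stood above WT replicates 1 and 3. Ciita, the master regulator of these genes, was not named. H2-Aa, H2-Ab1, H2-Eb1, H2-DMb1 and H2-DMb2, 5 of the 8 genes, lie on chromosome 17 in the histocompatibility region that also holds Cdsn, so a linked difference near Cdsn and the loss of corneodesmosin cannot be told apart for them.

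In the list of Langerhans and dendritic cell genes 7 of 18 were named, 6 higher and 1 lower. Cd207 encodes langerin, a lectin of Langerhans cells that is not theirs alone. It was at 4.52, 4.72, 4.66 and 4.77 in KO skin, against 3.97, 4.02, 3.72 and 3.75 in WT skin, and rose by 0.80 ± 0.12 (SE; limma adjusted p = 0.00196). Xcr1, a chemokine receptor of cross-presenting dendritic cells, rose by 0.90 ± 0.16, and Ccr7, which guides dendritic cells to lymph nodes, by 0.72 ± 0.14. Clec9a, a receptor of the same cross-presenting cells, fell by 0.89 ± 0.20, so that both directions occurred within the list.

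Besides Tcrg-V5, 2 of 21 gamma-delta T cell genes were named (9.52%, against 16.2% of all probe sets). These were the integrin Itgae, which ties T cells to E-cadherin of keratinocytes and rose by 0.97 ± 0.16 (SE), and Scart2, listed in the files as 5830411N06Rik, which fell by 0.83 ± 0.13. The constant segments of the gamma and delta chains were not named. Of 23 genes shared by T cells 7 were named, all higher, led by the coreceptor chain Cd8b1 (1.20 ± 0.15), Cd28 (1.07 ± 0.15) and Cd4 (0.86 ± 0.13). Cd3e, a signalling chain of every T cell receptor, was at 5.09, 5.50, 5.42 and 5.31 in KO skin, against 4.34, 4.70, 4.72 and 4.39 in WT skin. It rose by 0.79 ± 0.14 (limma adjusted p = 0.00413). For Cd3e and Cd4, KO replicates 2 and 3 were the higher pair, as for Tcrg-V5. They were not for Cd3d, Cd5, Cd28, Cd8b1 and Thy1, the rest of the named genes in this list.

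Other segments of the T cell receptor loci were counted after their values were seen. The authors' deposited table held 33 such symbols, of which 19 were higher and 14 lower in KO skin. Of all 5080 genes with a symbol there, 3760 were higher, so the segments had a smaller share of rises. The gamma segment Trgv2 rose by 1.02 ± 0.22 (SE). Both segments with a symbol of delta alone rose, Trdv5 by 0.95 ± 0.19 and Trdj2 by 0.92 ± 0.22. The alpha segments went both ways, 13 higher and 14 lower. Counted among the lower ones is Trav15-1-dv6-1, whose symbol names an alpha and a delta segment, and which fell by 0.98 ± 0.13. In 31 of the 33, Tcrg-V5 among them, the mean over the 8 arrays was below the median of all probe sets. These segments are short and alike, so that probes may bind related segments, which was not measured.

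Of 21 listed partners of the epidermal T cells 7 were named, 4 higher and 3 lower. The Skint genes, relatives of Skint1, whose product epidermal T cells need to develop, did not share a direction. Skint11 rose by 1.38 ± 0.37 (SE) and Skint5 by 0.65 ± 0.17, with an adjusted p of 0.0559 for Skint5 in limma after centring. Skint4 and Skint8, chosen after their values were seen, fell by 0.56 ± 0.16 and 0.64 ± 0.17. Cxadr, a junction protein that binds a receptor of these T cells, rose by 0.94 ± 0.22, and H60b, a member of the H60 family of ligands of the receptor NKG2D, fell by 0.68 ± 0.12. Skint1 was not named.

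Besides Trem1, 5 of 22 neutrophil genes were named and all 5 were higher, and 3 passed after centring. Their share, 22.7%, stands against 16.2% of all probe sets in either direction and 11.8% higher. S100a8 and S100a9, the calprotectin genes, rose by 1.24 ± 0.37 (SE) and 1.19 ± 0.27, and the receptor Clec4e by 0.73 ± 0.14. S100a8 passed in 4 of 14 alternatives (limma adjusted p = 0.0616 after centring), and KO replicate 4 stood apart from the other KO embryos. The defining neutrophil genes Ly6g, Csf3r, Cxcr2, Mpo and Elane were not named. Of 23 signalling genes around Cd14 and Trem1, both of them left out, 4 were named, 3 higher and 1 lower. This share, 17.4%, is near the 16.2% of all probe sets. Tlr2, a sensor of bacterial lipoproteins for which Cd14 is also a helper, was at 7.52, 6.84, 6.90 and 6.98 in KO skin, against 5.56, 5.87, 5.86 and 5.73 in WT skin. It rose by 1.30 ± 0.16 (limma adjusted p = 0.000923), and its highest KO value was in replicate 1, as for Trem1. Irak3, a brake on these receptors, rose by 1.26 ± 0.25. Trem3, chosen after its value was seen, fell by 0.57 ± 0.15. Tlr4 and Tyrobp were not named.

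Of 19 mast cell genes besides Mcpt4, which include Cma1, Cpa3, Kit and Fcer1a, 0 were named. Besides Lst1, 7 of 20 genes of the general leukocyte list, not all of them made by every leukocyte, were named. All 7 were higher, with a median of 0.68. The largest differences were those of the integrin chain Itgb2 (0.85 ± 0.13, SE), the signal relay Vav1 (0.79 ± 0.14) and the adhesion receptor Cd44 (0.75 ± 0.14), which keratinocytes also make. The pan-leukocyte gene Ptprc was not named. In the B cell and NK cell list 5 of 16 were named, all higher, with the NK receptor Ncr1 at 0.94 ± 0.12 and the antibody heavy chain Ighm at 0.87 ± 0.18.

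Lists of other skin cells held few named genes. Of 40 markers of basal keratinocytes, fibroblasts, endothelium and red cells, 3 were named (7.5%, against 16.2% of all probe sets), namely Mfap5 (0.78 ± 0.23, SE), Cldn5 (0.55 ± 0.15) and Hbb-bt (0.85 ± 0.15). After centring only Hbb-bt passed, and the limma adjusted p was 0.0752 for Mfap5 and 0.0719 for Cldn5. None of the 10 basal keratinocyte genes was named.

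**Figure D4:**
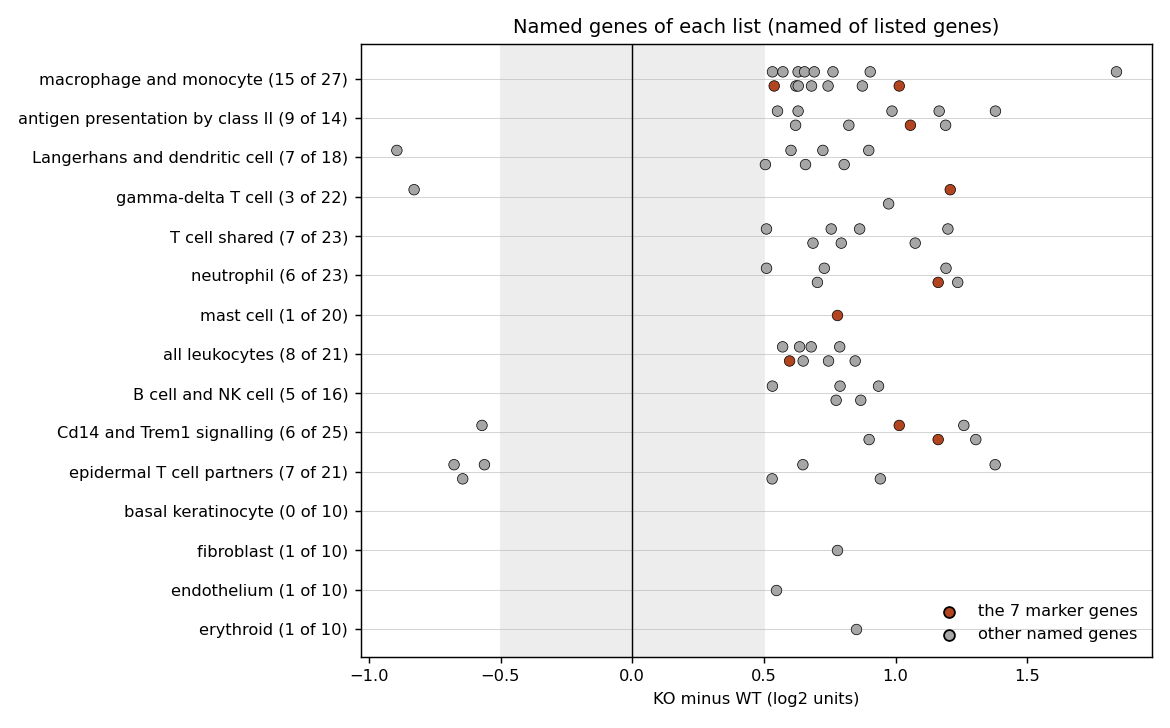
Difference KO minus WT in log2 units (x axis) of every named gene in each list (y axis, with named and listed genes in brackets); the 7 marker genes are in red, other genes in grey, and the shaded band is below the authors' minimum of 0.5, where no gene could be named. Most immune genes lie to the right of the band, and 6 lie to the left.

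Several of the 7 genes share a chromosome. Cd74 and Cd14 are on chromosome 18. Aif1 and Lst1 are neighbours on chromosome 17, in the histocompatibility region that also holds Cdsn, and Trem1 is on the same chromosome away from them. In the order of RefSeq genes (GRCm38.p6), 17 protein-coding genes lie between Lst1 and Cdsn, and 4 of these were named (23.5%, against 17.2% on the whole of chromosome 17 and 15.0% on the other chromosomes). All 4 were higher in KO skin, as were 146 of the 182 named genes of chromosome 17. Next to Lst1 are Ltb, a lymphotoxin chain, and Tnf, the inflammatory cytokine, which rose by 0.57 ± 0.14 and 1.29 ± 0.36 (SE). The genes that follow toward Cdsn, Lta, Nfkbil1, Atp6v1g2 and Ddx39b, were not named. Aif1 and Lst1 were chosen through the criteria, so nothing is read from their rise beside that of Ltb and Tnf. On the far side of Aif1, the nearest 3 genes, Prrc2a, Bag6 and Apom, were not named. Beside Cdsn itself, Psors1c2 (0.78 ± 0.24) and 2300002M23Rik (1.34 ± 0.16) rose and Gm9573 (−1.04 ± 0.12) fell. Psors1c2 passed in 6 of 15 alternatives and in none of the 3 rescalings (highest limma adjusted p = 0.126). The KO embryos differ from the WT embryos in the alleles they carry in this region. The loss of corneodesmosin and any linked difference near Cdsn therefore cannot be told apart for Aif1 and Lst1. How far a linked stretch would reach is not given in the labels. Trem1, Adgre1, Vav1 and Trem3, also on chromosome 17, are thus not exempt from this limit.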

How the data were processed

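Total RNA from 8 stripped and cultured skins was hybridised to Affymetrix Gene Mouse 2.0 ST arrays, per the file headers. The deposited values are log2 intensities of 33793 probe sets. RMA is named in the submitters' processing notes, without version or settings. Per the file headers, the authors' deposited table holds mean log2 intensities, the fold change as a ratio of KO over WT, its log2 value, the p-value with a Benjamini-Hochberg adjustment, the number of probes and an annotation class score for 5460 probe sets, of which 299 carry no symbol. The meaning of that score is not stated there. No label or header names a genome build, which is thus not given in the sources used here.

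The KO minus WT contrast was fitted to the deposited values with limma 3.58.1 under R 4.3.3 (lmFit, then eBayes, with genotype alone). P-values were adjusted by Benjamini-Hochberg across the 33793 probe sets, with calls at 0.05, and the fit was tested on simulated data. Every adjusted p is from limma. The members and lists were chosen with earlier results of these data known. Where a gene had several probe sets, that with the highest mean stood for it; 2 list genes were matched under another symbol through RefSeq. Besides the 7 members and Cdsn, up to 4 genes per list with the largest change, the 3 genes most like each member (the closest of each, and Fcgr2b, are printed) and the neighbours of Aif1 and Lst1 on chromosome 17 were set for naming, with further names marked as chosen later. Likeness is Pearson's r of deviations from genotype means (NumPy 2.4.6). RefSeq held all 7 members by symbol or synonym, and promoter sequence for 3. Alternatives were 3 scalings, low probe sets left out, no moderation, the replicate block and arrays left out. Each array came from another embryo. Litters are not given, and the p-values reflect variation among these 8 animals.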

Additional observations from a re-analysis of the deposited data

Results flagged for a closer look

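In groups of 4 embryos, the lowest or highest value was set against its gap to the others, for the 7 marker genes and the 36 further list genes set for naming. Of 86 groups, 3 held a value far from the rest; chance gives about 1 in 20, or 4.3 groups here. Aif1 was at 4.76 in WT replicate 2, against 4.57 to 4.59 in the other WT embryos. S100a8 was at 6.54 in KO replicate 4, against 4.90 to 5.08 in the other KO embryos. Hbb-bt was at 4.21 in KO replicate 4, against 4.64 to 4.68 in the other KO embryos.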

How the results depend on the processing

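All 7 marker genes kept a positive difference in each of the alternatives run for them (13 for Tcrg-V5, which the filter on low probe sets leaves out, and 14 for the others). The median difference over the members, 1.01 as deposited, was 0.90 after median centring and 0.84 to 1.07 when single arrays were left out. The difference of Aif1 was 0.42 after cyclic loess. No member has a further probe set in the table, so that alternative was not run. The count of changed probe sets, 7194, was 3299 with low probe sets left out, a setting that tests 16897 of them, and 4821 to 6424 when single arrays were left out. The share of higher calls was 50.5% after quantile normalization and after cyclic loess. Of the 71 immune list genes called, 39 were tested and called with low probe sets left out, 38 higher and 1 lower. When single arrays were left out 60 to 68 were called, and without moderation 52 (50 higher and 2 lower). Samples with the same replicate number did not deviate together in every pair (r −0.03 to 0.23). With the replicate block, 6250 probe sets and 69 of the 71 immune list genes were called. Of 48 further genes that the report gives as changed, Trav15-1-dv6-1 not among them, 31 passed limma in every alternative run for them. Clec9a, Trgv2, Cxadr and S100a9 lost the call without moderation and Ltb after centring (highest adjusted p 0.0514, 0.0517, 0.0644, 0.0681 and 0.0529). The other 12 lost it without moderation and when single arrays were left out: Trdj2 without KO replicate 2 or WT replicate 3, Skint11 without KO replicate 1 or 2, Skint5 without KO replicate 3 or 4 or WT replicate 3, and Trem3 without KO replicate 1 or 4 or WT replicate 3. Skint8 lost it with the replicate block and without KO replicate 1 or 4 or WT replicate 1 or 4, and Tnf without KO replicate 1, 2 or 4 or WT replicate 1 or 3. Cldn5 and Psors1c2 lost it without KO replicate 1 or 2 or WT replicate 1, 3 or 4, S100a8 without KO replicate 1 or 4 or WT replicate 1, 3 or 4, and Mfap5 without KO replicate 1, 2 or 3 or WT replicate 1 or 2. Skint4 lost it without KO replicate 1, 2 or 4 or WT replicate 1, 2 or 3, and H2-Aa without KO replicate 2, 3 or 4 or WT replicate 1, 3 or 4. H2-Aa, S100a8, Mfap5 and Psors1c2 lost it after each of the 3 rescalings, and Skint5 and Cldn5 after centring. The highest adjusted p of these 12 over all alternatives ran up to 0.159, for Mfap5.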
